A study of Mus musculus with 8 samples.

Results

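The 10 genes described here encode the H3K9 methylation, HP1 and CAF-1 proteins that are known barriers to reprogramming, and they were taken by name from 21853 mouse protein-coding genes on chromosomes 1 to 19, X and Y. Setdb1, Suv39h2, Ehmt1, Ehmt2 and Trim28 form the H3K9 methylation group, Cbx1, Cbx3 and Cbx5 the HP1 group, and Chaf1a and Chaf1b the CAF-1 group. Each gene was represented by the body of its longest protein-coding transcript (GENCODE M21, mm10), and all 10 belonged to the 8766 marked genes, that is, genes with at least 4 exons and at least 10% of the body inside H3K36me3 peaks in at least 1 library.

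Mouse embryonic fibroblasts (MEFs) taken at embryonic day 13.5 and carrying doxycycline-inducible Oct4, Sox2, Klf4 and cMyc (OSKM) were held for 72 h in medium for induced pluripotent stem cells. MEF cells received neither doxycycline nor added vitamin B12, MEF B12 cells received 2 µM vitamin B12 without doxycycline, OSKM cells received 1 µg per ml doxycycline, and OSKM B12 cells received both. H3K36me3 was profiled by ChIP-seq in 1 library per condition, each with its own input. All libraries carry the label of a single MEF clone, so none of the differences below has a replicate check, no p-value is given, and the intervals cover counting error only. A lower signal in a mixed culture can come from fewer marked cells or from less mark per cell, and these cannot be told apart.

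Reprogramming needs heterochromatin, the compact and transcriptionally silent part of the genome, to be reopened. H3K9 methyltransferases write methyl groups on lysine 9 of histone H3, HP1 proteins bind that mark through their chromodomain, and CAF-1 places new H3-H4 histones on replicated DNA so that the silent state is passed on. H3K36me3 is a different mark, written by SETD2 as RNA polymerase II elongates, and in these genes it reports on the transcribed gene body rather than on the silent chromatin that their proteins build.

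Depth was similar across libraries, with 29046913 to 33399267 H3K36me3 tags and 65473 to 69420 peaks each. Strong peaks, at a -log10 q of 5 or more, made up 3.31% of the OSKM list and 15.0 to 19.1% of the other 3 lists. The fibroblast marker Col1a1 was covered over 93.9 to 99.4% of its body in all 4 libraries and 7 of 7 fibroblast markers were marked genes, whereas Nanog, Pou5f1, Cdh1, Epcam, Pecam1 and Ptprc had no peak base in any library. Zfp42 reached 2.42% in OSKM alone and Kdr 0.903% in OSKM B12 alone. The part of these library differences in the results below was not tested.

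Sequence examples show the kinds of DNA on which the mark was called and on which it was not. The first set holds the shortest peak of a member in 1 list, printed on the strand of the gene (GRCm38.p6, the assembly of mm10) with each CG dinucleotide, the main site of DNA methylation in mammals, in capitals. The Setdb1 peak (chr3:95336387-95336674, minus strand) lies in intron 14 and was 1 of 5 OSKM pieces that touched a single 11558-base MEF peak. The Suv39h2 peak (chr2:3461738-3462029, minus strand) lies in intron 4 and was 1 of the 4 small MEF peaks of that gene.
Setdb1: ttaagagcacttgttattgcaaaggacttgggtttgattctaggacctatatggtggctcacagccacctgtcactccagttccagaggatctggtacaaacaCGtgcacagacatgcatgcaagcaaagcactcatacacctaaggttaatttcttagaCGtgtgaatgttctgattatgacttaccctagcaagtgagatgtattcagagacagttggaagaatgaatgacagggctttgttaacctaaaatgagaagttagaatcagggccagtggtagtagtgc
Suv39h2: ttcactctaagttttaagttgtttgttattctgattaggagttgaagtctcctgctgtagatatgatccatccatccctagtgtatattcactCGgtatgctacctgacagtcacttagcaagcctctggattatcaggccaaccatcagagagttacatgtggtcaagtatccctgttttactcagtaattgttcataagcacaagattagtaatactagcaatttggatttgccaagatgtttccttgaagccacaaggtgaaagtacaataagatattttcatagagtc
These intronic peaks held 2 and 1 CG dinucleotides, respectively, with G and C at 43.1 and 38.0% of bases.

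By contrast, the 250 bases before the RefSeq starts of the CAF-1 genes held 28 (Chaf1a, chr17:56040166-56040415) and 21 CG dinucleotides (Chaf1b, chr16:93883651-93883900), both on the plus strand and again in capitals.
Chaf1a: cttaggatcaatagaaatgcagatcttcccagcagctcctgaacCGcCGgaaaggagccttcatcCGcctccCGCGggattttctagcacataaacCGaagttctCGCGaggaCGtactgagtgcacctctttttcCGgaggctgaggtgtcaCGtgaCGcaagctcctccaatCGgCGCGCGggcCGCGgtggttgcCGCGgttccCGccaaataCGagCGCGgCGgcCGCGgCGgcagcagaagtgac
Chaf1b: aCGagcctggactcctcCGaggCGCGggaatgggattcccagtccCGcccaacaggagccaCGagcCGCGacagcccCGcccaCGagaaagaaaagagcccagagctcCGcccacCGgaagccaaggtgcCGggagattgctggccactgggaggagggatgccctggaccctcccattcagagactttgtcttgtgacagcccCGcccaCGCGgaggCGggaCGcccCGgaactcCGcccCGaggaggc
Of the 13 RefSeq promoter windows of the 10 members (300 bases each, with 50 after the start), 0 held a base of any peak in any list, against 3.92% of all 32851 windows in the genome. The window nearest the start of each member held 15 (Setdb1) to 34 (Ehmt1 and Cbx3) CG dinucleotides, counted once for both strands because CG reads the same on each, and 34.6% of all windows held at least 15. The mark on these genes therefore began inside the body, at least 1410 bases after the transcript start in every library.

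Covered share, the percentage of the gene body inside peaks, was lower in OSKM than in MEF for 9 of 10 members, set beside 95.0% of all marked genes. Its mean over the members was 57.4% in MEF, 60.5% in MEF B12 and 43.9% in OSKM, with 62.1% in OSKM B12. The marked genes went from 48.9% in MEF and 51.7% in MEF B12 to 33.4% in OSKM and 52.1% in OSKM B12, so the members were covered more widely than the average marked gene in each library, with the libraries in the same order.

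**Figure D1:**
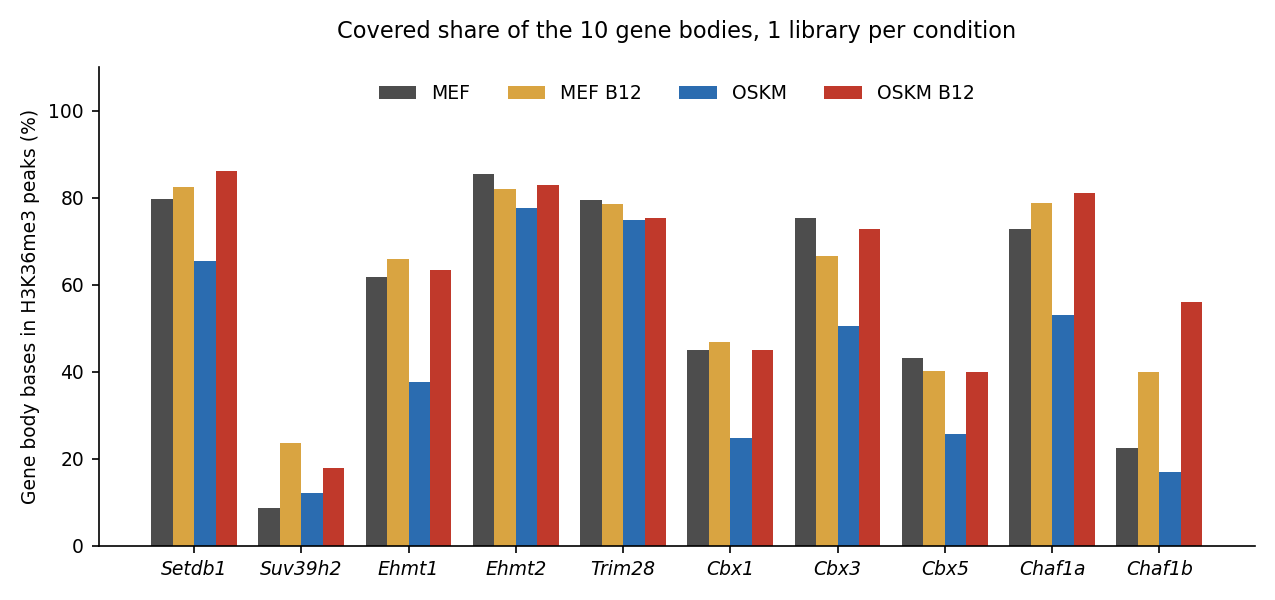
Covered share of each gene body (percent of bases inside H3K36me3 peaks, y axis) for the 10 genes (x axis), with 1 bar for each of the 4 libraries. The OSKM bar is the lowest of the 4 for every gene except Suv39h2, whose lowest bar is MEF at 8.72%, and the Chaf1b bar rises from 17.0% in OSKM to 56.0% in OSKM B12.

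The amount of mark was measured as density, the sum of the peak pileup per 1000000 tags over the body bases in peaks divided by body length. Its change was taken as log2 of the ratio with 0.05 added to both values. In OSKM against MEF the density was at least 1.5-fold lower for 8 of 10 members, against 68.7% of marked genes. In OSKM B12 against OSKM it was at least 1.5-fold higher for 9 of 10, against 95.2%, and in MEF B12 against MEF for 2 of 10, against 3.45%. Counts this close to the background for both OSKM comparisons say nothing particular about the members. They also depended on scaling, since with pileup divided by its mean over bases shared by all lists 2 of 10 members were past 1.5-fold in OSKM against MEF and 3 of 10 in OSKM B12 against OSKM. Median log2 changes were also near those of the marked genes, at -0.75 against -0.71 for OSKM against MEF, 1.02 against 0.98 for OSKM B12 against OSKM and 0.24 against 0.21 for MEF B12 against MEF. OSKM against MEF shares its OSKM library with OSKM B12 against OSKM and its MEF library with MEF B12 against MEF.

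By group, the median log2 change in OSKM against MEF was -0.63 for the H3K9 methylation genes, -0.94 for the HP1 genes and -0.60 for the CAF-1 genes. With vitamin B12 during OSKM it was 0.91, 1.05 and 1.34 in the same order. Groups of 5, 3 and 2 genes with 1 library per condition allow no test of these differences. Suv39h2 and Chaf1b departed most from the other members, and both lay beyond the 95th percentile of marked genes in MEF B12 against MEF.

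**Figure D2:**
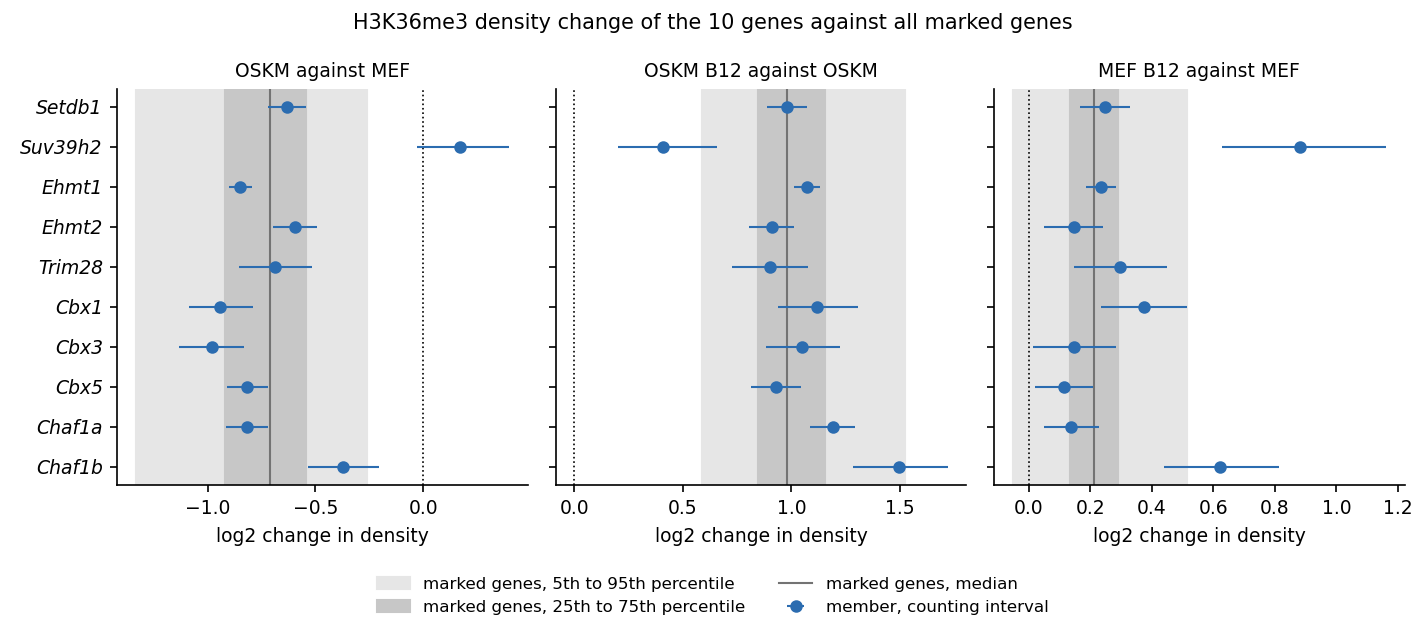
Log2 change in H3K36me3 density (x axis, 0.05 added to both values) of each of the 10 genes (y axis) in 3 comparisons, as points with 95% counting intervals, over bands that hold the 5th to 95th and the 25th to 75th percentiles of the 8766 marked genes. Suv39h2 lies beyond the wider band in all 3 panels, at 0.17, 0.41 and 0.88, and Chaf1b lies beyond it in MEF B12 against MEF, at 0.62.

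Among the H3K9 methyltransferases, SETDB1 deposits H3K9me3 on transposable elements and other silenced DNA. The Setdb1 gene (ENSMUSG00000015697, chr3:95323525-95357202, minus strand, 22 exons) was covered over 79.7% in MEF, 82.4% in MEF B12 and 65.5% in OSKM, with 86.2% in OSKM B12. OSKM was lowest and OSKM B12 highest. Density was 0.545, 0.657, 0.334 and 0.708 in the same order, which gave an OSKM to MEF ratio of 0.614 (95% counting interval 0.572 to 0.658) and an OSKM B12 to OSKM ratio of 2.12 (1.98 to 2.27). These changes were close to the middle of the marked genes, of which 62.0% and 49.9% had a lower log2 change. The mark was cut into 11 peaks in OSKM, against 7 in MEF, 6 in MEF B12 and 5 in OSKM B12. Its exonic coverage of 87.1% was equal in MEF and OSKM, while intronic coverage was 78.6% in MEF and 62.1% in OSKM. The last 75 bases of the body overlap Cers2 on the opposite strand. In each library the peak over the gene end ran 3535 to 3839 bases further, inside Cers2, and cannot be assigned to a strand there.

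TRIM28 is the co-repressor that brings SETDB1 to DNA bound by KRAB zinc-finger proteins. The Trim28 transcript (ENSMUSG00000005566, chr7:13024152-13031035, plus strand, 17 exons) is the shortest body of the 10 at 6884 bases. It was covered over 79.5% in MEF, 78.6% in MEF B12 and 75.0% in OSKM, with 75.4% in OSKM B12, so that coverage hardly separated the libraries. Density did separate OSKM, at 0.476 against 0.797 in MEF, 0.991 in MEF B12 and 0.932 in OSKM B12. The OSKM to MEF ratio was 0.597 (0.524 to 0.680) and the OSKM B12 to OSKM ratio 1.96 (1.72 to 2.23). A single peak of 7852 to 8158 bases ran from intron 2 or 3 to beyond the gene end in 3 libraries, and OSKM held the same stretch as 2 peaks.

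EHMT2 (G9a) and EHMT1 (GLP) act as a heterodimer that writes mono- and dimethylation of H3K9 in euchromatin. The Ehmt2 gene (ENSMUSG00000013787, chr17:34898469-34914051, plus strand, 28 exons) carried the densest mark of the 10, at 0.958 in MEF, 1.07 in MEF B12 and 0.618 in OSKM, with 1.20 in OSKM B12. Between 99.7 and 99.8% of marked genes had a lower density in each library, and its coverage of 85.4, 82.1, 77.6 and 83.0% changed little. The OSKM to MEF ratio was 0.645 (0.598 to 0.697) and the OSKM B12 to OSKM ratio 1.95 (1.81 to 2.10). In MEF and OSKM B12 the mark ran from intron 4 past the gene end as 1 peak. MEF B12 and OSKM had a separate weak peak in intron 4 before it, with pileups of 11.9 and 11.1. The main peak had a pileup of 27.5 in OSKM and 36.6 to 43.0 in the other libraries.

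The Ehmt1 gene (ENSMUSG00000036893, chr2:24789928-24919614, minus strand, 27 exons) has the longest body, 129687 bases. Its coverage was 61.9% in MEF, 66.0% in MEF B12 and 37.6% in OSKM, with 63.4% in OSKM B12, and OSKM stood apart from the other 3. Density was 0.364, 0.438, 0.180 and 0.435, an OSKM to MEF ratio of 0.495 (0.472 to 0.518) and an OSKM B12 to OSKM ratio of 2.41 (2.30 to 2.52). The mark was broken up in OSKM, which held 33 peaks with a longest of 4007 bases. MEF held 21 and OSKM B12 18, with longest peaks of 19898 and 20236 bases. Exons were covered over 97.0% in MEF and 84.4% in OSKM, and introns over 60.2% and 35.3%. The first peak after the start lay at 6614 bases in MEF, 6698 in MEF B12 and 6644 in OSKM B12, all in intron 1, and at 32762 bases in OSKM. All of these first peaks were weak, at a -log10 q of 1.48 to 3.27.

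SUV39H2 writes H3K9me3 at pericentric heterochromatin, and Suv39h2 was the member with the least mark. Its body (ENSMUSG00000026646, chr2:3455815-3475031, minus strand, 6 exons) was covered over 8.72% in MEF, 23.6% in MEF B12 and 12.2% in OSKM, with 17.8% in OSKM B12, so it counted as marked through the other 3 libraries and not through MEF. MEF was lowest here, the only member for which it was. Density was 0.0364, 0.109, 0.0473 and 0.0793, from an estimated 78, 209, 105 and 155 tags. In OSKM against MEF the ratio of 1.30 had an interval that includes 1 (0.957 to 1.76), so a difference was not detectable at this depth, while 99.2% of marked genes had a lower log2 change. In MEF B12 against MEF the ratio was 3.00 (2.30 to 3.94), above 98.9% of marked genes, and in OSKM B12 against OSKM it was 1.67 (1.31 to 2.18), above 1.89% of them. All 15 peaks on Suv39h2 were weak, with a highest -log10 q of 3.17, and only 36 bases were in a peak in all 4 lists. The 3′ 8316 bases of the body, 43.3% of it, overlap the gene Dclre1c on the opposite strand, which was itself covered over 31.1% in MEF, 40.8% in MEF B12 and 19.9% in OSKM, with 43.4% in OSKM B12. Peaks in the overlap cannot be assigned to a strand. Over the body outside Dclre1c the log2 changes were 0.26 for OSKM against MEF, 0.20 for OSKM B12 against OSKM and 0.81 for MEF B12 against MEF, beside 0.17, 0.41 and 0.88 for the whole body.

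HP1 proteins are the readers of H3K9 methylation, and the 3 genes that encode them were each lower in OSKM by more than the median of marked genes, although within the range of most of them. Cbx1 encodes HP1-beta (ENSMUSG00000018666, chr11:96789159-96808640, plus strand, 6 exons). Coverage was 45.1% in MEF, 46.9% in MEF B12 and 24.8% in OSKM, with 45.1% in OSKM B12, with OSKM alone below the rest. Density was 0.269, 0.364, 0.116 and 0.311, an OSKM to MEF ratio of 0.432 (0.372 to 0.500) and an OSKM B12 to OSKM ratio of 2.67 (2.31 to 3.10). Intron 1 peaks began 6690 bases after the start in MEF and 6794 in OSKM B12, but the first OSKM peak lay in intron 3 at 12594 bases. The first of these intron 1 peaks were weak, at a -log10 q of 1.55 in MEF and 1.31 in OSKM B12. The peak over the 3′ end ran past the gene end by 14103 bases in MEF B12 and 14009 in OSKM B12, against 2170 in MEF and 1372 in OSKM. The difference was partly in where peaks were split, because 94.4% of the 14103 bases after the gene end lay inside a peak in MEF and 69.7% in OSKM, each over 3 peaks, with 100% and 99.3% in MEF B12 and OSKM B12. Genes lying wholly past the end of Cbx1 were not looked up, so the mark in this stretch cannot be assigned to Cbx1.

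Cbx3 encodes HP1-gamma (ENSMUSG00000029836, chr6:51470530-51483704, plus strand, 6 exons). It was covered over 75.5% in MEF, 66.5% in MEF B12 and 50.4% in OSKM, with 72.9% in OSKM B12. Density was 0.517, 0.579, 0.237 and 0.545, and the OSKM to MEF ratio of 0.459 (0.403 to 0.520) was the 2nd lowest of the 10 after Cbx1. Vitamin B12 during OSKM gave a ratio of 2.30 (2.02 to 2.61). In MEF, MEF B12 and OSKM B12 the mark stopped inside exon 6 for 1021 to 1081 bases and then resumed across the gene end, and OSKM had no peak beyond that gap. Only 10.0 to 14.2% of the 75-base windows in the gap occur once in the genome, 75 bases being the read length, and the aligner kept reads with a single alignment. Over the exons of Cbx3, 36.1% of such windows are unique, against 92.1 to 100% for the exons of the other 9 members, and the exonic coverage of Cbx3 in MEF was 32.0%. Its start lies 636 bases from that of Hnrnpa2b1 on the other strand.

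Cbx5 encodes HP1-alpha (ENSMUSG00000009575, chr15:103191544-103239816, minus strand, 5 exons). Its body was covered over 43.1% in MEF, 40.2% in MEF B12 and 25.7% in OSKM, with 40.0% in OSKM B12. Density was 0.246, 0.270, 0.118 and 0.270, with ratios of 0.480 (0.437 to 0.527) for OSKM to MEF and 2.29 (2.08 to 2.51) for OSKM B12 to OSKM. Most of the mark lay in the 3′ part. The 1st peak began 4258 bases after the start in MEF and 3800 in MEF B12, but at 26849 in OSKM and 26614 in OSKM B12. The isolated intron 1 peaks of MEF and MEF B12 were weak, at a -log10 q of 1.29 to 1.63. Those of MEF and MEF B12 did not overlap each other, and neither OSKM library had a peak there. The start of Hnrnpa1 lies 616 bases away on the other strand.

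The CAF-1 genes encode the large and the middle subunit of the chromatin assembly factor. Chaf1a (ENSMUSG00000002835, chr17:56040439-56070276, plus strand, 14 exons) was covered over 72.8% in MEF, 78.8% in MEF B12 and 52.9% in OSKM, with 81.1% in OSKM B12. Density was 0.520, 0.577, 0.274 and 0.688, an OSKM to MEF ratio of 0.526 (0.486 to 0.570) and an OSKM B12 to OSKM ratio of 2.52 (2.33 to 2.72). OSKM was lowest in both measures and OSKM B12 highest. Exonic coverage stayed at 97.1 to 98.0% in all 4 libraries, and the difference lay in the introns, covered over 67.2% in MEF, 74.5% in MEF B12 and 42.7% in OSKM, with 77.3% in OSKM B12. Its last 3232 bases overlap Ubxn6 on the opposite strand.

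Chaf1b (ENSMUSG00000022945, chr16:93883901-93906115, plus strand, 14 exons) had the widest range across libraries. It was covered over 22.5% in MEF, 40.0% in MEF B12 and 17.0% in OSKM, with 56.0% in OSKM B12. Both vitamin B12 libraries were above both libraries without it. The same order held for Setdb1, Ehmt1, Chaf1a, Suv39h2 and, narrowly, Cbx1, and for the mean of the marked genes. The share of marked genes with this order was not counted, so it cannot be read as particular to Chaf1b. Density was 0.0929, 0.170, 0.0603 and 0.261, from an estimated 230, 376, 155 and 587 tags. The OSKM B12 to OSKM ratio was 4.32 (3.62 to 5.20), the highest of the 10 members and above 94.4% of marked genes in log2 change, and the MEF B12 to MEF ratio was 1.83 (1.55 to 2.16), above 97.1%. OSKM to MEF gave 0.649 (0.525 to 0.798), with a lower log2 change in 90.8% of marked genes. Set directly against MEF, OSKM B12 was higher by a ratio of 2.81 (2.41 to 3.28), above 99.1% of marked genes. All peaks on Chaf1b were modest, with a highest -log10 q of 4.54 in OSKM B12. That library also held 3817 bases, 17.2% of the body, in peaks found in no other list. Over the 861 bases in a peak in all 4 lists the pileup ratio was 1.41 (0.881 to 2.19) for OSKM B12 to OSKM. It was 0.996 (0.635 to 1.61) for MEF B12 to MEF, so a difference in the pileup of the peaks over the shared bases was not detectable.

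**Figure D3:**
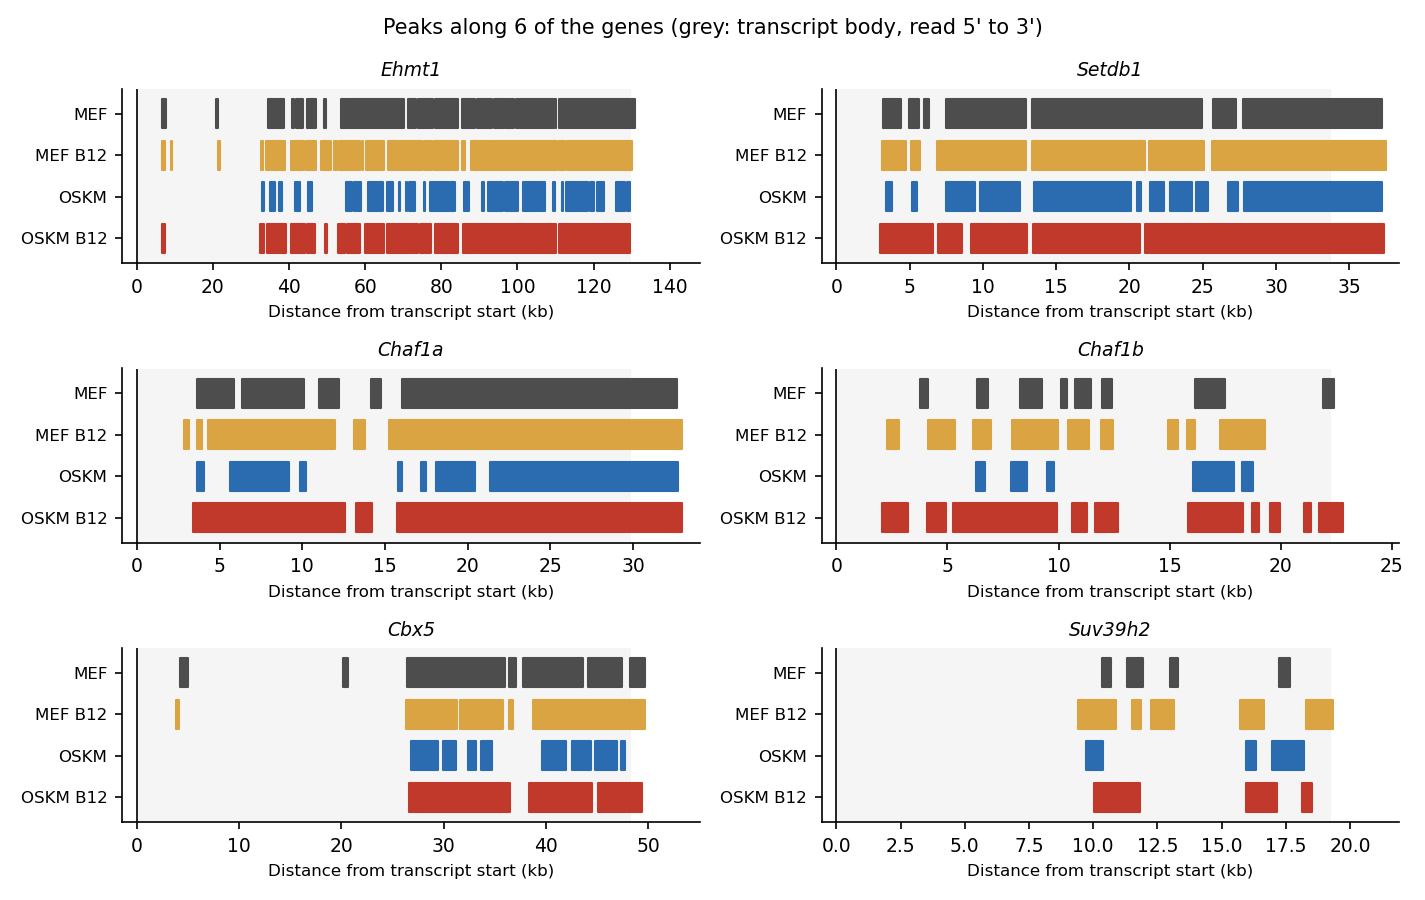
H3K36me3 peaks (bars) in the 4 libraries (y axis) along 6 of the genes, by distance from the transcript start in kb (x axis), with the transcript body shaded grey. OSKM bars are shorter and more numerous on Ehmt1 (33 peaks against 21 in MEF), the first Cbx5 peak lies 26849 bases from the start in OSKM and 26614 in OSKM B12, and the peaks of Suv39h2 are few and short in each library.

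The 10 bodies were touched by 58 peaks in MEF, 60 in MEF B12 and 78 in OSKM, with 52 in OSKM B12, with median peak lengths of 1570, 1365.5, 1202.5 and 2125 bases. OSKM had more peaks than MEF on 8 of 10 members, beside 45.5% of marked genes, and fewer on Suv39h2 and Chaf1b, and Ehmt1 held 33 of the 78. The count depended on where neighbouring peaks were split. With peaks at most 1 kb apart merged, 30 touched the members in MEF and 41 in OSKM, and OSKM had more on 4 members (Setdb1, Ehmt1, Cbx3 and Chaf1a), beside 37.6% of marked genes. Of the 193836 member bases in a MEF peak, 35.3% were in no OSKM peak, against 42.4% for the marked genes. Of these 68475 bases, 82.9% were inside a peak in OSKM B12, with 76.0% for the marked genes, and the share ran from 67.6% for Suv39h2 to 95.9% for Trim28. Bases with an OSKM peak and no MEF peak made up 2.51% of the member bodies and 1.61% of the marked bodies.

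Pooled over the members, bases that MEF and OSKM peaks had in common contained 45.9% G and C and 10.6 CG dinucleotides per 1000 bases. Bases in a MEF peak but no OSKM peak had 42.2% and 7.23 per 1000. The pooled values lean on Ehmt1, which gave 34246 of the 68475 bases without an OSKM peak, and G and C was lower in the bases without an OSKM peak for 7 of 10 members but higher for Suv39h2, Trim28 and Cbx3. Marked genes as a whole had 46.9% G and C in the common bases and 43.2% in those without an OSKM peak. Mean exonic coverage of the members was 70.9% in MEF and 63.2% in OSKM, and mean intronic coverage was 56.5% and 41.0%. For the marked genes the exonic means were 66.3% and 48.7% and the intronic means 46.0% and 30.7%. Coverage of the exons was above that of the introns for 7 of 10 members in MEF and for 8 of 10 in OSKM. Neither this count of members nor that for G and C was made over the marked genes, so neither can be read as particular to the members.

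Where the same bases were in a peak in all 4 lists, the pileup of the peaks over them could be compared. Each base carried the single pileup value of its whole peak, so where peaks were called still entered this comparison. Outside Suv39h2 and Chaf1b, which shared 36 and 861 bases, the members shared 4823 to 43301 bases. Their pileup per 1000000 tags at those bases was lower in OSKM than in MEF for 8 of 8, with ratios from 0.646 (Trim28) to 0.787 (Cbx5), and none of the intervals reached 1. With vitamin B12 during OSKM the ratios ran from 1.46 (Cbx5) to 1.91 (Trim28). In MEF B12 against MEF they ran from 1.03 (Chaf1a, interval 0.946 to 1.11) to 1.36 (Cbx1, 1.17 to 1.58). Marked genes moved the same way over such bases. The median log2 change in OSKM against MEF was -0.39 for all members and -0.32 for 8258 marked genes. In OSKM B12 against OSKM it was 0.62 against 0.53, and in MEF B12 against MEF 0.20 against 0.16. The count of 8 was not made over the marked genes, so it cannot be read as particular to the members.

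Each gene body was cut into 5 equal parts. Mean coverage over the members was lowest in the part at the 5′ end in every library and was highest in the fourth or the last part. Single genes could depart from this, such as Chaf1b in MEF, which was highest in the third part at 42.0%. In MEF the mean coverage of the members was 13.7% in the first of these parts, 53.3% in the second, 63.3% in the third, 81.3% in the fourth and 75.6% in the last. In OSKM it was 3.56, 38.1, 46.0, 61.3 and 70.3%. The gap between these libraries was smallest in the last of these parts, whereas the marked genes went from 72.1% in MEF to 52.3% in OSKM there. This small gap leaned on Suv39h2, covered there over 11.4% in MEF and 43.4% in OSKM by weak peaks inside the Dclre1c overlap. Chaf1b and, slightly, Setdb1 were also higher there in OSKM, and Ehmt2, Trim28 and Chaf1a stayed at 100%. Cbx3 and Cbx5 were lower, as were Ehmt1 (95.2 to 60.5%) and Cbx1 (100 to 66.6%). OSKM B12 followed MEF, at 16.6, 59.4, 69.2, 82.1 and 83.2%, and MEF B12 stood at 12.2, 56.9, 68.9, 80.8 and 83.7%. Peaks ran past the gene end for 9 of 10 members in MEF and MEF B12, 8 in OSKM B12 and 5 in OSKM. The shares of marked genes were 63.7% in MEF, 67.0% in MEF B12 and 42.1% in OSKM, with 65.3% in OSKM B12, so OSKM was lowest there too. For Setdb1, Chaf1a and, in MEF B12, Suv39h2, the bases past the end lay inside Cers2, Ubxn6 and Dclre1c, on the opposite strand. Such bases cannot be assigned to the members, and genes wholly past the end of a member were not looked up.

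**Figure D4:**
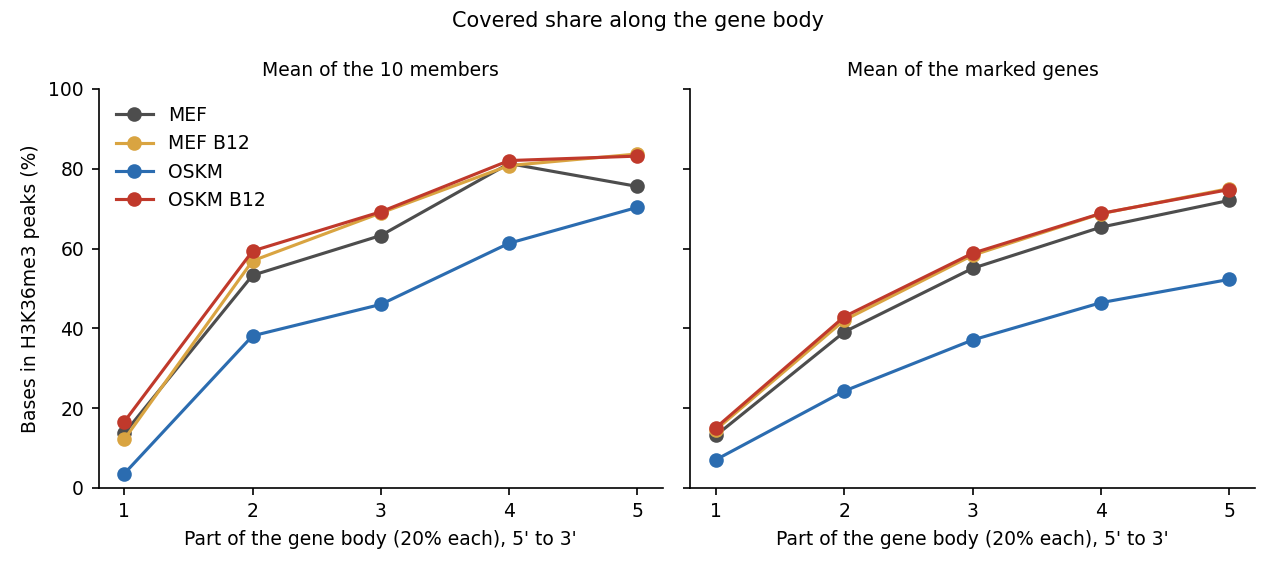
Mean percentage of bases inside H3K36me3 peaks (y axis) in each of the 5 equal parts of the gene body from 5′ to 3′ (x axis), for the 10 members at left and the marked genes at right, with 1 line per library. The OSKM line is the lowest throughout both panels, and for the members it reaches 70.3% in the last part, close to the 75.6% of MEF. That closeness leans on Suv39h2, covered there over 11.4% in MEF and 43.4% in OSKM.

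Vitamin B12 without OSKM gave changes of both directions in coverage and of one direction in density. Coverage in MEF B12 was above that in MEF for 6 members and below it for Ehmt2, Trim28, Cbx3 and Cbx5, beside 71.6% of marked genes above. Density was above MEF for 10 of 10, beside 92.2% of marked genes, by log2 0.12 (Cbx5) to 0.88 (Suv39h2). That direction depended on scaling: without division by tags, or with pileup divided by its mean over bases shared by all lists, 4 of 10 members were lower in MEF B12. The direction of the other 2 comparisons did not turn for any member under these scalings. Scaling to shared bases moved the median of all marked genes from -0.71 to -0.41 for OSKM against MEF, from 0.98 to 0.48 for OSKM B12 against OSKM and from 0.21 to 0.05 for MEF B12 against MEF. The medians of the members under that scaling were -0.39, 0.46 and 0.07, again near those of the marked genes.

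The wider pathway was followed through 33 further genes that act with the members. These comprised H3K9 methylation partners, the HUSH silencing complex, H3K9 demethylases, histone chaperones, SUMO pathway genes and HP1-binding proteins. All 33 were marked, beside 8766 of the 16332 protein-coding genes with at least 4 exons. In OSKM against MEF, 32 were lower and 1 higher in density, beside 98.0% of marked genes lower. Of the 33, 27 were past 1.5-fold, beside 68.7% of marked genes, with a median log2 change of -0.80 beside -0.71. In OSKM B12 against OSKM 32 were higher, beside 99.4% of marked genes, and all 32 were past 1.5-fold, beside 95.2%, with a median of 1.05 beside 0.98. In MEF B12 against MEF 0 were past 1.5-fold, beside 3.45%, with a median of 0.21 beside 0.21. These genes thus changed about as the marked genes did.

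Rbbp4, the histone-binding subunit that completes CAF-1, was covered over 79.9% in MEF, 80.7% in MEF B12 and 54.7% in OSKM, with 84.8% in OSKM B12, close to the pattern of Chaf1a. Its log2 changes were -0.90 for OSKM against MEF and 1.12 for OSKM B12 against OSKM. Suv39h1, the paralog of Suv39h2 on chromosome X, was covered over 72.9% in MEF, 72.7% in MEF B12 and 22.3% in OSKM, with 66.9% in OSKM B12. At -1.40 and 1.42 its changes were large where those of Suv39h2 were 0.17 and 0.41, although both genes encode enzymes with the same activity.

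Pcna, the replication clamp to which CAF-1 binds, had the lowest log2 change of the list in OSKM against MEF. It was covered over 58.2% in MEF, 40.3% in MEF B12 and 12.6% in OSKM, with 39.8% in OSKM B12, with log2 changes of -1.56 and 1.55. Setdb2, a relative of Setdb1, followed at -1.52 with coverage of 37.0% in MEF, 38.9% in MEF B12 and 5.61% in OSKM, with 33.2% in OSKM B12. At the other end were 2 thinly covered genes, although thin coverage did not set them apart. Phf8, covered over 24.1% in MEF and 4.32% in OSKM, had a log2 change of -1.02. Asf1b, a histone chaperone that hands H3-H4 to CAF-1, was covered over 7.32% in MEF, 11.4% in MEF B12 and 12.8% in OSKM, with 4.99% in OSKM B12, with log2 changes of 0.32 and -0.53. It counted as marked only through MEF B12 and OSKM, so the direction of these changes is tied to the filter. Its densities, 0.0187 to 0.0492, all lay below the 0.05 added. Lmnb1, a nuclear lamina protein, had the value nearest to 0 among the lower genes, at -0.40, with coverage of 24.3, 34.2, 18.5 and 35.6% in the same order.

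The genes whose density over the 4 libraries was nearest to the median profile of the members (0.441 in MEF, 0.507 in MEF B12 and 0.209 in OSKM, with 0.490 in OSKM B12) were Cdc5l, Rnf214 and Iws1. Their Euclidean distances on the log2 scale over 4 libraries were 0.0417, 0.0457 and 0.0484. Cdc5l, a splicing factor, was covered over 65.2% in MEF and 41.6% in OSKM.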

How the data were processed

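H3K36me3 ChIP-seq was analysed in 4 libraries, 1 per condition, each with its own input (8 samples). The authors aligned 75-base reads to mm10 with Bowtie 0.12.9, keeping reads with a single alignment, removed duplicates and called broad peaks per library with MACS2 2.2.6 at q cutoffs of 0.05 and 0.1. The deposited values are the peak pileup (signal, or coverage, in fragments), the fold enrichment (ratio) over input, and -log10 p-values and q-values. Inputs were not analysed on their own here. The doxycycline dose is printed as in the labels, and the methods text gives it in a different unit. The extraction protocol spells the antibody target H3K3me3, and the title of the series H3K36me3, which is used here.

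Peaks were intersected with gene bodies (GENCODE M21, same assembly), and pileup was divided by tags after filtering (per 1000000). Density and log2 changes (0.05 added) were computed for 8766 marked genes. Intervals (95%) are exact conditional binomial for ratios, on tags estimated as pileup times overlap over fragment length (288 to 292 bases), and cover counting error only. Unique windows were counted by exact match on chromosomes 1 to 19, X and Y. RefSeq promoters matched all 10 members. Scripts (Python 3.11, numpy 2.4.6, scipy 1.17.1, pandas 2.3.3) were tested on simulated data. The shortest peaks and the CAF-1 promoters were picked for printing after their values were seen, and the unique-window count was also added then.

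Named genes were all members, their overlapping neighbours or those with starts within 1 kb, Rbbp4, Suv39h1, the 2 lowest and 2 highest pathway genes in OSKM against MEF, and the 3 genes nearest to the profile. The members and lists were chosen with earlier results of these data known. Alternatives covered peak strength, peak number, scaling, pseudocount, gene span, overlapping genes and shared bases.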

Additional observations from a re-analysis of the deposited data

Results flagged for a closer look

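Covered share moved in opposite directions with vitamin B12 in uninduced and induced cells for 4 of the 10 genes, as a ratio of the library with vitamin B12 to that without. The same was true of 28.2% of marked genes. For Ehmt2 the ratio was 0.960 in MEF and 1.07 in OSKM. For Trim28 it was 0.988 and 1.01, and for Cbx3 0.882 and 1.45. For Cbx5 it was 0.933 and 1.55. With 1 library per condition the difference was not tested. Density, by contrast, was higher with vitamin B12 in both settings for all 4 genes when scaled by tags.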

How the results depend on the processing

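No paired analysis was possible because there was 1 library per condition. For the same reason no replicate could be left out. Under 10 alternatives for each of 3 comparisons, 20 of 30 member medians moved by less than their spread and none turned. With only peaks at a -log10 q of at least 5, the median log2 change was -1.87 for OSKM against MEF. For OSKM B12 against OSKM it was 2.72, and marked genes gave -1.07 and 1.81. Suv39h2 and Chaf1b had no such peak in any list. In OSKM only 2 members, Ehmt2 and Trim28, had such a peak, against 8 in each other list. The remaining members kept no OSKM density, so the size of their changes depended on the pseudocount added to both densities. These medians therefore cannot show a larger change in the members than in the marked genes. With pileup divided by its mean over shared bases, the medians were -0.39, 0.46 and 0.073 for OSKM against MEF, OSKM B12 against OSKM and MEF B12 against MEF, and 2, 3 and 1 members were past 1.5-fold. Over bases in a peak in all 4 lists, the first 2 medians were -0.39 and 0.62, and 1 member was past 1.5-fold in OSKM against MEF and 0 in MEF B12 against MEF. Without division by tags, the last 2 medians were 0.86 and 0.092, with 1 member past 1.5-fold in MEF B12 against MEF. A pseudocount of 0.01 gave 1.15 for OSKM B12 against OSKM. With peaks at most 1 kb apart merged, 23 of 40 peak counts changed by over 1.5 times. Chaf1b in MEF B12 against MEF was reversed, at -0.0057, over bases in a peak in all 4 lists. The cause was not tested. Suv39h2 and Chaf1b rest on the fewest tags, and peaks were called in each library separately.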
